A study of Drosophila melanogaster with 2 samples.

Results

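Weak peaks of the transcription factor Dp away from gene starts were 1046 of the 30000 peaks in the relaxed list that the authors called on both replicates pooled. They were chosen by their signal value, which is the authors' own measure of enrichment at a peak and has no stated scale. A peak was taken when its signal value was 100 or more, when it was absent from the list thresholded by irreproducible discovery rate (IDR), and when its summit lay more than 500 bp from every thresholded summit and every protein-coding start. Of the 8733 pooled peaks with a signal of 100 or more, 5828 were thresholded and 2905 were not. Of those 2905, 1059 were dropped for lying within 500 bp of a coding start only, 83 for a thresholded summit only and 717 for both. The 1046 kept are called weak distal peaks here. They were set beside 721 thresholded peaks that also lay more than 500 bp from every coding start, called thresholded distal peaks.

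Chromatin came from whole Drosophila melanogaster embryos aged 0 to 24 hours, with males and females pooled, of 1 transgenic line (Dp-GFP) that stably expresses Dp with green fluorescent protein at its C-terminal end. The series had 1 group, with 2 biological replicates numbered 1 and 3, and no other genotype, treatment or stage. The sources used here do not give the promoter of the transgene or the state of the fly's own Dp gene. Both libraries are labelled as input controls although Dp is given as the antibody target, a discrepancy that was not resolved. Read depth was unknown, because the files give peaks and not reads, so intervals below are exact binomial at 95% and cover counting error only. In whole embryos a low signal in most cells and a higher signal in few cells cannot be told apart.

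Dp is the partner with which E2F proteins bind DNA. In flies, dimers with E2f1 activate genes of DNA synthesis and the G1 to S transition, while dimers with E2f2 sit in the Myb-MuvB (dREAM) complex, which represses many genes, and both are best known at promoters near the start. Regulatory DNA away from starts, such as enhancers and insulators, is bound by other proteins, among them GAGA factor at GAGA repeats and the insulator proteins Su(Hw) and CTCF.

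Sequences reaching 100 bp to each side of the summit are shown for 12 weak distal peaks, in dm6 coordinates, on the plus strand, written 5′ to 3′. Capitals mark words that recurred at these summits. The E2F core is TTNNCGC with C or G at each N, the GAGA site is GAGAGAG, and the other words are AAGTATGC, CACTGTGC and AGATGGCGCC, each read on both strands. The first 4 are the peaks of highest signal among those eligible for printing, and only the first of them holds a marked word, the octamer as GCATACTT. Its gene name, like the others, is that of the host gene or the nearest coding start.
CG5568 (chr3L:5869778-5869978, signal 212): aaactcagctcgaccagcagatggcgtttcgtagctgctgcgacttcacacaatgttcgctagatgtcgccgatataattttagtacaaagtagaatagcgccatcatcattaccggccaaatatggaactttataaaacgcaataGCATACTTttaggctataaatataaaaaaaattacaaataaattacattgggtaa
HDAC4 (chrX:13278856-13279056, signal 212): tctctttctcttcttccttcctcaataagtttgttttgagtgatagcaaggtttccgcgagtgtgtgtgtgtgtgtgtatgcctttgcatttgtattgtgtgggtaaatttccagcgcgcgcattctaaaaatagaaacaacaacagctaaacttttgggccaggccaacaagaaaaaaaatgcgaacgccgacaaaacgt
GILT1 (chr3R:13400879-13401079, signal 210): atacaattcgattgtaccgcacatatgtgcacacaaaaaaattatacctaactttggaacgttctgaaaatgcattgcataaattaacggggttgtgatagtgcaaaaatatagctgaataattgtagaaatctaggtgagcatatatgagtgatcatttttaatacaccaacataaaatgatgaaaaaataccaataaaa
Ids (chr3L:3394946-3395146, signal 209): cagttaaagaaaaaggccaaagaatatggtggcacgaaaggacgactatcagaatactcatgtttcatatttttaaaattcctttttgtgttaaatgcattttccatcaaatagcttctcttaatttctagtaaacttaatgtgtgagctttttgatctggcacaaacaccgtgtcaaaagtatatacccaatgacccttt

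The next 3 are the strongest that hold an E2F core. In the peak nearest Inx2 the core began past the summit, with its middle 61 bp away, in the one nearest CG9300 it lay 10 bp before the summit, and in siz it lay 84 bp before it, with the octamer AAGTATGC close by in the same window.
Inx2 (chrX:7004227-7004427, signal 209): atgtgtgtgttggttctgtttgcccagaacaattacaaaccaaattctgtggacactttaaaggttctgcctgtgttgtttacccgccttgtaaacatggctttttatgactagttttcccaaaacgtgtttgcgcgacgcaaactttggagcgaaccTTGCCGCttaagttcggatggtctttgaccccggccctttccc
CG9300 (chr3L:19562294-19562494, signal 206): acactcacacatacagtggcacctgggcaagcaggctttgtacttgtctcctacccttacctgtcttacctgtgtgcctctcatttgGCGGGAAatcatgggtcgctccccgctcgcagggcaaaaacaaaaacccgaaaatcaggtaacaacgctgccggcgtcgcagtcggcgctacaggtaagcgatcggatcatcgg
siz (chr3L:21049638-21049838, signal 205): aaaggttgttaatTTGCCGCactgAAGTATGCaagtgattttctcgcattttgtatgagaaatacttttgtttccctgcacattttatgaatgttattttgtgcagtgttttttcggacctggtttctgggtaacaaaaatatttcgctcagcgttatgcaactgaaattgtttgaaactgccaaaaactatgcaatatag

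The last 5 show the other words, in the strongest printable peak or peaks holding each that were not already shown above. They are AAGTATGC near CG43131 and in Pak3, AGATGGCGCC (as GGCGCCATCT) in CG32264, CACTGTGC overlapping an E2F core in CHES-1-like, and a run of GAGA sites, read from the other strand, in LPCAT. These peaks were picked after the words had been seen and serve as examples.
CG43131 (chr3R:5113159-5113359, signal 200): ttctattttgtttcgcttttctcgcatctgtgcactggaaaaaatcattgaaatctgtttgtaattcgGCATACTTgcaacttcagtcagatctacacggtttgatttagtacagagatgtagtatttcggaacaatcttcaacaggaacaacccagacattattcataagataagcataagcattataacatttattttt
Pak3 (chr3R:16449240-16449440, signal 193): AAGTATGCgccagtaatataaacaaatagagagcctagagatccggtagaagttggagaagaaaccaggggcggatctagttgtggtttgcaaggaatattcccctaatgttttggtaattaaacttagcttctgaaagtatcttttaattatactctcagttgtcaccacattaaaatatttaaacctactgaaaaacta
CG32264 (chr3L:3767900-3768100, signal 192): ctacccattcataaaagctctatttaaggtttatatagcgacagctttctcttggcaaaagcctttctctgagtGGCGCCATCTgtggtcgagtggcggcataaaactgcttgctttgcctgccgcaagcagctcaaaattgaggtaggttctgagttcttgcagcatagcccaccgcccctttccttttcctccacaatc
CHES-1-like (chrX:7700322-7700522, signal 200): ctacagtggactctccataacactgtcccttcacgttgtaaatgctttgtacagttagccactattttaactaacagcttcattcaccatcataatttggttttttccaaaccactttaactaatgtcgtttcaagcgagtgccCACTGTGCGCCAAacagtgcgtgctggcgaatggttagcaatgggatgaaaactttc
LPCAT (chrX:9579145-9579345, signal 196): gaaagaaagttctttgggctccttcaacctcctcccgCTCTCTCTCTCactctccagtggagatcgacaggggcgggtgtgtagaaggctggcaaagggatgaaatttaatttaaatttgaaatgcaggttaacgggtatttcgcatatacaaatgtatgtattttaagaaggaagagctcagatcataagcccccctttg

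The signal of weak distal peaks had a lowest value of 100, a median of 131 and a highest value of 212.7. These values follow from the choice and are given as description. The 3 peaks just inside the minimum had signals of 100, 100.05 and 100.06, and the 3 just outside had 99.94, 99.94 and 99.83. At the upper edge the strongest had 212.7, 212.06 and 212.0, and the lowest thresholded peak had 212.77. They therefore held ranks 5830 to 8733 of the pooled list, directly below the thresholded peaks. All 1046 carried the highest deposited −log10 q value of 4.30, as 9997 pooled peaks did, so that value does not separate them. Thresholded distal peaks had a median signal of 452. The closest weak distal summit lay 508 bp from a coding start and 617 bp from a thresholded summit.

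Nearly all weak distal peaks were present in both replicate lists. A replicate 1 summit lay within 250 bp of 1040 of them, a replicate 3 summit within 250 bp of 1038, and summits of both within 250 bp of 1032, or 98.7% (97.8 to 99.3%). None lacked both. The share was 99.3% among thresholded distal peaks, 97.3% among the 1059 weak peaks at starts, and 45.1% among the 16644 pooled peaks away from starts with a signal under 100. The pooled list contains the reads of both replicates, so presence in each is partly built into the choice, and no test was made. All lists were also called against the same control.

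At the 1032 shared peaks the signal in replicate 1 had a lowest value of 15.7, a median of 69.3 and a highest value of 142, and in replicate 3 it had 17.3, 66.9 and 134. The log2 difference of replicate 3 over replicate 1 had a median of -0.02 and an SD of 0.60 over peaks, against -0.16 and 0.44 at thresholded distal peaks. Replicate 1 was higher at 534 peaks and replicate 3 at 498, and 96 differed more than 2-fold. One of these, in an intron of Hr4, an ecdysone-induced nuclear receptor gene, had a signal of 126 in replicate 1 and 32.0 in replicate 3. In the separate replicate lists, 985 of the shared peaks ranked below the top 5828 in both, 33 were in the top of replicate 1 only, 14 in that of replicate 3 only, and 0 in both. The choice took pooled ranks directly below the thresholded peaks, so this split is partly built in.

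**Figure D1:**
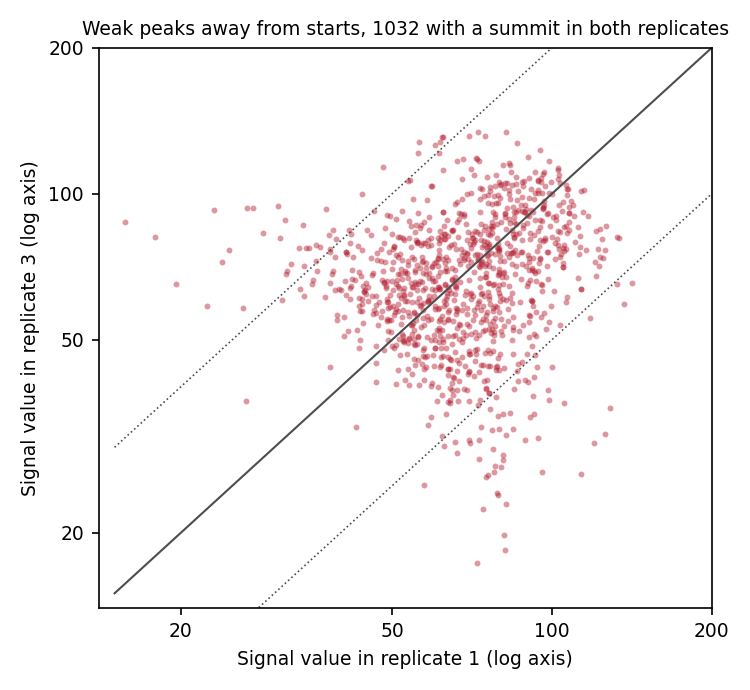
Signal value of weak distal peaks in replicate 1 (x axis) and replicate 3 (y axis), both on log axes in the authors' unscaled units, 1 point per peak for the 1032 peaks with a summit in both. The solid line marks equal values and the dotted lines a 2-fold difference, beyond which 96 peaks lie.

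Most intervals were of a single size. The deposited interval was 530 bp wide at 849 weak distal peaks (81.2%), narrower at 197 and wider at 0. Only 3.33% of thresholded distal peaks had that width. Among neighbours, 74 weak distal peaks had another within 250 bp and the smallest gap was 199 bp, so some stretches of DNA entered more than once. Pairs of this kind can match 1 replicate summit, which 12 peaks did in replicate 1 and 16 in replicate 3. Joining peaks under 500 bp apart left 998 regions. The median distance to the nearest other weak distal peak was 15511 bp, and 327 (31.3%) had one within 5000 bp.

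Weak distal peaks lay mainly in introns. An intron of a protein-coding gene held 677 of them, or 64.7% (61.7 to 67.6%), against 40.2% (36.6 to 43.9%) of thresholded distal peaks, which is 24.5 percentage points more (Fisher's exact test, two-sided, adjusted p = 1.36e-23 over 5 places). Introns covered 44.4% of all positions of the arms more than 500 bp from a coding start. Intergenic sequence held 282, or 27%, against 49.0% of thresholded distal peaks and 33.8% of positions (Fisher's exact test, adjusted p = 9.81e-21). The intronic share was thus higher and the intergenic share lower in weak than in thresholded distal peaks. This direction was not particular to weak distal peaks. Pooled peaks away from starts and below the minimum signal had 52.4% in introns and 17.1% in intergenic sequence. Their intronic share lay between those of the other lists, and their intergenic share was below both. These weaker peaks were not tested. Peaks are places in 1 pooled data set and not replicates of a condition, so the p-values given here compare lists and say nothing of other embryos.

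Coding exons were nearly empty of them. A coding exon held 16 summits, or 1.53% (0.877 to 2.47%), where coding exons made up 15.9% of positions. Thresholded distal peaks had 2.50% there (Fisher's exact test, adjusted p = 0.201), while pooled peaks under a signal of 100 had 23.4%. The 3′ UTR held 52 weak distal summits (4.97%), against 7.07% of thresholded distal peaks (Fisher's exact test, adjusted p = 0.131), and the 5′ UTR held 19 (1.82%), against 1.25% (Fisher's exact test, adjusted p = 0.439). With a minimum signal of 150 both UTR differences passed the threshold of 0.05, at 3.57% against 7.07% in the 3′ UTR (Fisher's exact test, adjusted p = 0.0318) and at 3.57% against 1.25% in the 5′ UTR (Fisher's exact test, adjusted p = 0.0279).

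**Figure D2:**
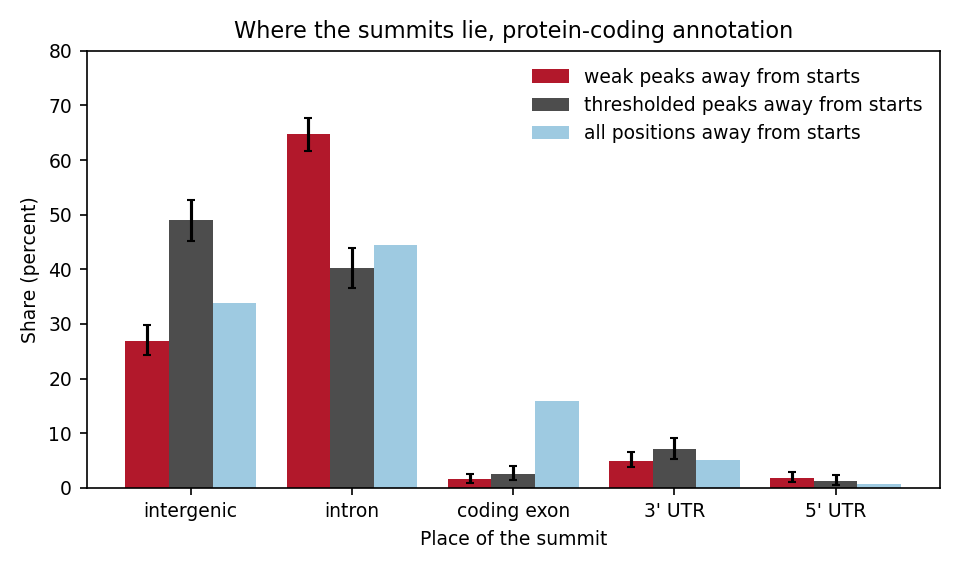
Share of summits (y axis, percent) in each kind of sequence (x axis) for weak distal peaks, thresholded distal peaks and all positions more than 500 bp from a coding start. Error bars are exact 95% binomial intervals. Introns hold 64.7% of weak distal peaks, against 40.2% of thresholded distal peaks, and coding exons hold 1.53%.

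The distance from the summit to the nearest coding start had a median of 2374 bp at weak distal peaks and 1642 bp at thresholded distal peaks. More than 2000 bp lay between them at 576 weak distal peaks (55.1%) and 322 thresholded ones (44.7%). At 116 weak distal peaks (11.1%) the distance passed 10000 bp, and the longest was 49847 bp. The nearest thresholded summit was a median of 6397 bp away.

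Starts of noncoding genes, which the choice did not use, lay within 500 bp of 81 weak distal summits, or 7.74% (6.20 to 9.53%), against 63 thresholded distal summits (8.74%) and 2.37% of positions. Genes annotated as ncRNA, a class that includes long, antisense and small RNAs, were at 61 of them, tRNA genes at 14, snoRNA genes at 4, pseudogenes at 3 and an snRNA gene at 1, and a summit can count for more than one kind. The strongest weak distal peak of all, near CG6163 with a signal of 212.7, lay 373 bp from the start of lncRNA:CR45251. The next strongest of this kind lay 344 bp from asRNA:CR44969 (signal 207), 242 bp from lncRNA:CR45916 (206), 285 bp from lncRNA:CR45352 (198) and 231 bp from snoRNA:Psi28S-3342 (194), whose RNA guides pseudouridylation of ribosomal RNA. The 14 peaks at tRNA genes had signals of 100.2 to 193.8. Annotated transposable elements held 4 weak distal summits (0.382%), against 9 thresholded distal summits (1.25%) and 6.62% of positions.

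Of the 20 motifs tested, 3 passed against the flanks, the E2F core, its longer form and the GAGA site. The E2F core was found within 100 bp of 151 weak distal summits, or 14.4% (12.4 to 16.7%), against 8.51% of flanking windows centred 500 bp to either side, 1.70 times as many (exact McNemar test, two-sided, with the larger p of both sides, adjusted p = 0.00035 over 20 motifs). Of all windows of that length along the arms, 8.69% held it. The longer form, with a further T in front of each core and so always containing one, was at 93 summits, or 8.89% (7.24 to 10.8%), against 3.39% of flanks and 3.38% of all windows (exact McNemar test, adjusted p = 4.3e-06). A match to the letters is a description and not evidence of a bound site, and most weak distal summits had no core within 100 bp.

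The share with an E2F core varied little with the signal within the group. It was 14.1%, 13.8%, 13.8% and 16% in 4 equal bands of rising signal, with the interval of the lowest band reaching from 10.1 to 18.9%. It was 16% among intergenic and 13.0% among intronic summits, and 5 of the 16 summits in coding exons had one. The summit share exceeded the flank share by 5.93 percentage points over all weak distal peaks and by 6.55 points among the 336 with a signal of 150 or more, where the test no longer passed (exact McNemar test, adjusted p = 0.330). The longer form gave 5.50 points over all and 5.36 among the 336 (exact McNemar test, adjusted p = 0.0787). With those 336 peaks, 0 of 20 motifs passed against the flanks, where all 1046 gave 3.

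GAGA sites, the repeats bound by GAGA factor, were the third motif to pass, by a narrow margin. They were at 93 weak distal summits, or 8.89% (7.24 to 10.8%), against 5.45% of flanks and 2.45% of all windows (exact McNemar test, adjusted p = 0.0482). The call was lost when only peaks with a replicate 1 summit were kept (exact McNemar test, adjusted p = 0.0750). That setting still used the pooled list and its summits. The call was also lost away from noncoding starts (exact McNemar test, adjusted p = 0.129). With 1 peak per joined region it was lost as well (exact McNemar test, adjusted p = 0.129). It was lost too with a minimum signal of 150 (exact McNemar test, adjusted p = 0.969). Within 50 bp of the summit it was likewise lost (exact McNemar test, adjusted p = 1). Intronic summits held GAGA sites in 10.6% of cases and intergenic ones in 3.55%. Both an E2F core and a GAGA site were at 26 of the 1046 summits, where 151 held the first and 93 the second. The overlap was not tested.

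Of the other motifs, the CHR element (TTCGAA or TTTGAA), a MuvB site known from cell cycle genes, was found at 34.0% of weak distal summits, against 29.0% of their flanks (adjusted p = 0.263 by the exact McNemar test). With flanks 1000 bp away CHR passed (exact McNemar test, adjusted p = 0.00218). Sites of Zelda, which opens chromatin in early embryos, were at 1.15% of summits and 1.05% of flanks, GATA sites at 2.39% and 3.01%, AP-1 sites at 2.39% and 2.25%, and Myb sites at 27% and 26.1%. None of these 4 passed the exact McNemar test (adjusted p = 0.854, 0.854, 0.854 and 1).

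Against thresholded distal peaks, weak distal peaks had the E2F, CHR and DRE motifs less often. Of 20 motifs, 10 differed in share, 7 lower and 3 higher in weak distal peaks (two-sided Fisher's exact test, adjusted over 20 motifs). The E2F core was at 14.4% of weak and 23.9% of thresholded distal summits (Fisher's exact test, adjusted p = 4.54e-06), and its longer form at 8.89% and 14.6% (adjusted p = 0.00117). With starts at 1000 bp in place of 500 bp, the difference of the longer form was -3.26 points and missed the threshold (adjusted p = 0.120 by Fisher's exact test). CHR was at 34.0% and 52.4% (Fisher's exact test, adjusted p = 3.06e-13). DRE (TATCGATA), bound by the promoter factor DREF, was at 1.15% and 6.24% (Fisher's exact test, adjusted p = 3.41e-08), and its core CGATA, part of every DRE, at 22.8% and 33.0% (adjusted p = 1.29e-05). For comparison, the 1059 weak peaks at starts had the E2F core in 15.4% and DRE in 5.67%, and pooled peaks away from starts under a signal of 100 had them in 11.9% and 0.312%.

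The promoter element known as motif 1 was at 0 of 1046 weak distal summits, which allows a share of up to 0.287% when 3 counts are taken as the limit (the exact binomial upper limit is 0.352%), and at 7 thresholded distal summits (0.971%; Fisher's exact test, adjusted p = 0.00617). Sites of the Polycomb group protein Pho (GCCATTT) were at 3.92% and 6.80% (Fisher's exact test, adjusted p = 0.0202). The 3 motifs with a higher share in weak distal peaks were the CA repeat (CACACACA), at 9.66% against 5.83% (Fisher's exact test, adjusted p = 0.0125), the run of 8 A (13.8% against 9.99%, adjusted p = 0.0400) and the GAGA site (8.89% against 5.96%, adjusted p = 0.0467). Weak peaks at starts had these 3 motifs in 5.29%, 10.95% and 10.95%, in the same order, so their GAGA share was above that of weak distal peaks. This comparison was not tested. The TATA box (11.1% against 13.0%) and the initiator (15.4% against 16.9%) missed the threshold (adjusted p = 0.356 and 0.522 by Fisher's exact test). Several of these calls ended under other settings, by the same exact test. GAGA missed the threshold under 6 of them, with adjusted p of 0.0566 to 0.330, among them keeping only peaks with a replicate 1 summit (0.0705). With a minimum signal of 150, the adjusted p of the exact test was 0.0595 for the CA repeat, 0.0586 for the A run, 0.103 for Pho and 0.190 for motif 1. Starts at 1000 bp also ended the calls of the A run (0.0978) and Pho (0.0894), a window of 50 bp that of the CA repeat (0.256), and a window of 200 bp those of the A run (0.275), Pho (0.484) and motif 1 (0.0611). Base composition was close in both lists, with a G and C content of 39.9 ± 7.92% at weak and 39.0 ± 7.28% at thresholded distal summits (SD over windows), against 42.2% in all windows.

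**Figure D3:**
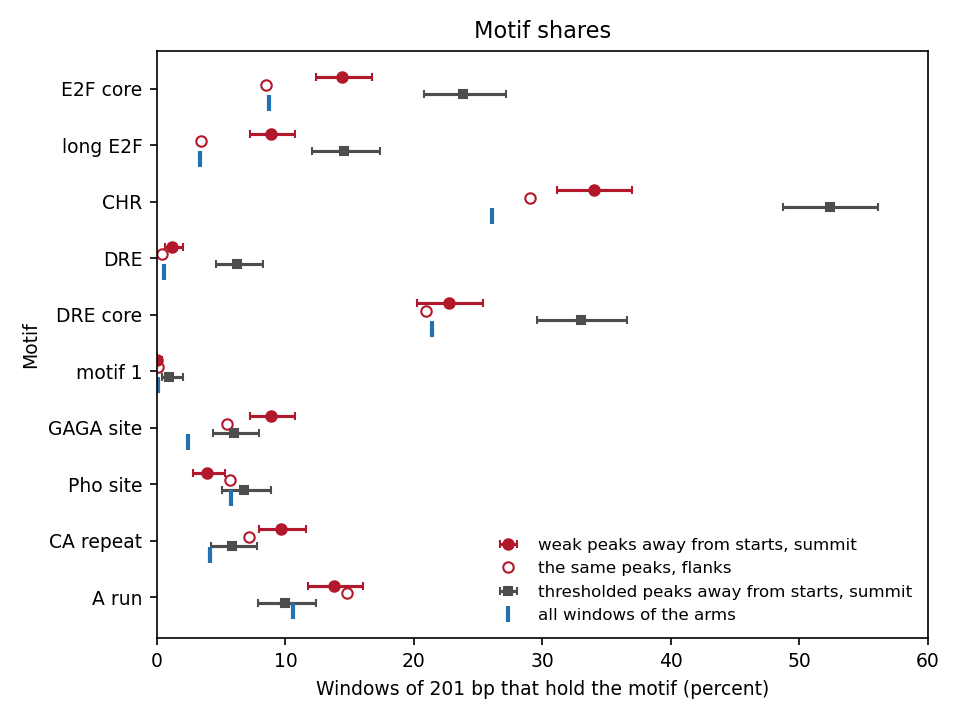
Share of windows of 100 bp to each side holding each of the 10 motifs that differed between weak and thresholded distal peaks (x axis, percent), for weak distal summits, their flanks, thresholded distal summits and all windows of the arms. Bars are exact 95% binomial intervals. The E2F core is at 14.4% of weak distal summits, above the flanks at 8.51% and below the thresholded distal summits at 23.9%.

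A search of all words of 8 letters, made after the data had been seen, is given without a test. It ranks single spellings, so a motif with several spellings, such as E2F, is split among them. Ranked by summit share minus flank share, the first 3 of 31046 words were overlapping pieces of AAAAGTATGC, and that word itself led the words of 10 letters, at 29 weak distal summits (2.77%) and 0.0956% of flanks. The octamer AAGTATGC was at 55 weak distal summits, or 5.26% (3.99 to 6.79%), with 5 matches in left and 4 in right flanks. It was at 4.30% of thresholded distal summits, 1.61% of weak peaks at starts and 0.887% of all windows. Its letters match the core of the sequence bound by the insulator protein Su(Hw), and the octamer is printed above in CG43131, Pak3, siz and the peak near CG5568. The fourth word of 8 letters was TTTGGCGC, one of the longer E2F forms, at 4.11% of weak distal summits, 0.717% of flanks and 7.77% of thresholded distal summits.

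Peaks with AAGTATGC had signals of 101 to 212 with a median of 130, close to the whole group's median of 131, and 54 of the 55 had summits in both replicates. Of the 55, 5 also held an E2F core and 0 a GAGA site, where 14.4% and 8.89% of all weak distal peaks did. With so few peaks the difference was not tested. They lay in introns in 21 cases and between genes in 24. The genome arms hold 6220 such octamers, of which 59 lay within 100 bp of a weak distal summit, or 0.949%. Near any of the 5828 thresholded summits lay 76, or 1.22%, with 34 at the 721 thresholded distal ones. Weak distal windows cover 0.157% of the positions of the arms. The share covered by thresholded windows was not computed and the lists differ in size, so 0.949% and 1.22% are not like for like.

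Other words recurred as well. CACTGTGC was at 41 weak distal summits (3.92%), 0.956% of flanks and 1.94% of thresholded distal summits. The shorter ACAGTG, which overlaps it on the other strand, was at 16.7% of weak distal summits, 7.84% of flanks and 13.7% of thresholded distal summits and led the 2080 words of 6 letters. The decamer AGATGGCGCC, whose letters match the binding sequence of fly CTCF, was at 12 weak distal summits (1.15%) and at 24 thresholded distal ones (3.33%), and at 0 of the 2092 flanks of weak distal peaks, which allows a share of up to 0.143% by the same limit of 3 counts. Of its 330 places on the arms, 12 lay at weak distal summits (3.64%) and 41 at all thresholded summits (12.4%), 25 of them at thresholded distal ones. The lists differ in size here too, so these shares are not like for like. Taking the E2F core, the GAGA site, AAGTATGC and CACTGTGC together, 302 weak distal summits held at least 1, 36 held more than 1, and 744 (71.1%) held none.

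**Figure D4:**
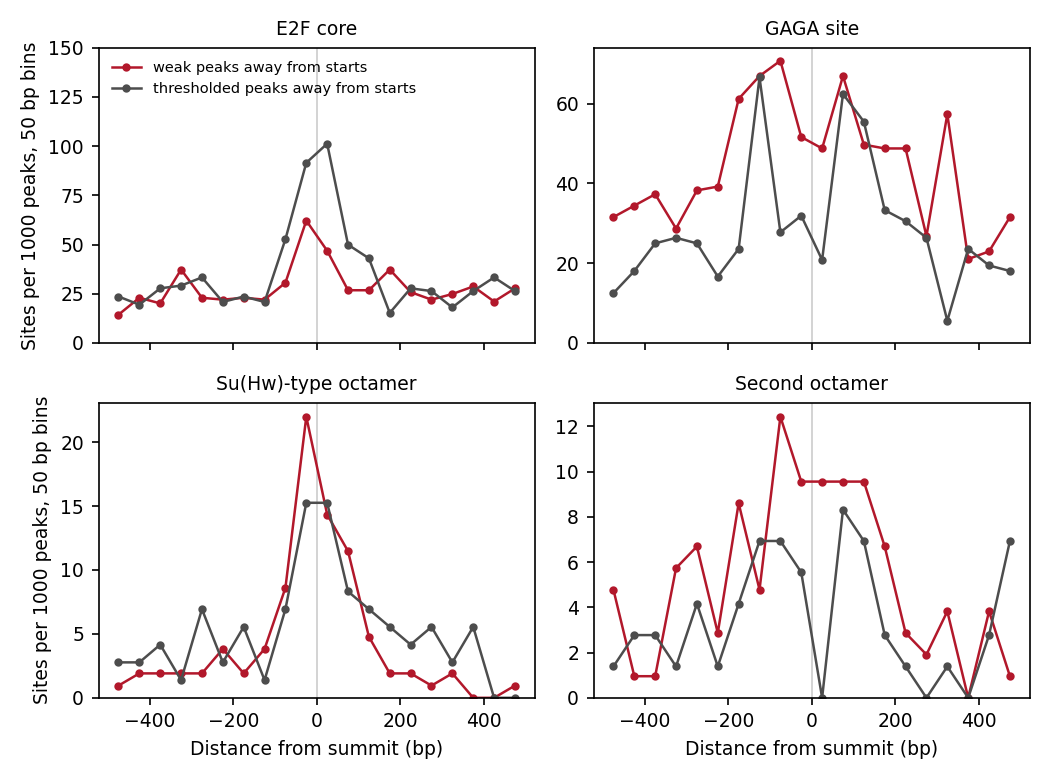
Sites per 1000 peaks in 50 bp bins (y axis) by distance from the summit in bp (x axis) for the E2F core, the GAGA site, AAGTATGC (Su(Hw)-type octamer) and CACTGTGC (second octamer), in weak and thresholded distal peaks. In weak distal peaks the E2F core and AAGTATGC reach their highest bin just before the summit, at 62.1 and 21.99 sites per 1000 peaks, while GAGA sites are spread over the neighbouring bins.

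Each weak distal peak was given to the gene whose body held it or, outside genes, to the nearest coding start. In this way 758 of 13945 protein-coding genes, or 5.44%, had at least 1, of which 572 had 1, 127 had 2 and 59 had more. Gene bodies held 764 peaks (73.0%) in 549 genes with a median length of 16734 bp, against 2166 bp over all coding genes. Longer genes hold more positions away from starts, and whether length alone gives the longer hosts was not tested. Among the 1977 genes of 10000 bp or more, 21.5% had a weak distal peak. A thresholded summit within 500 bp of a start was found for 395 of the 758 genes (52.1%), against 5891 of all 13945 (42.2%).

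The 10 strongest weak distal peaks had signals of 208.4 to 212.7. After the peak near CG6163 (123 in replicate 1 and 84.5 in replicate 3) came one near slbo, which encodes the C/EBP factor of migrating border cells, with a signal of 212.06 (95 in replicate 1 and 123 in replicate 3). HDAC4, a histone deacetylase gene, held one in an intron at chrX:13278793-13279057 with a signal of 212 (114 in replicate 1 and 101 in replicate 3). Introns also held those of GILT1, a thiol reductase gene (chr3R:13400714-13401243, signal 210.2), and drk, the Grb2-type adaptor of receptor tyrosine kinases (signal 209.5). Peaks outside genes had as their nearest starts CG5568 (212.0), Ids, a sulfatase gene (209.0), Inx2, a gap junction gene (208.9), and RYBP, a Polycomb-associated protein gene (208.4). One lay in the 3′ UTR of RpS26, a ribosomal protein gene (208.9). In replicate 1 these 10 spanned 81.8 to 132, and in replicate 3 they spanned 81.4 to 134, so each was well above the lowest values of the group in both.

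Some genes held several. The most were assigned to tara, a trithorax group gene, with 8, of which 7 lay in its body of 34679 bp. Tlk, encoding the Tousled-like kinase of chromatin assembly, had 7 in a body of 69764 bp, with signals of 117 to 190. Raf, the kinase of the MAP kinase pathway, the forkhead gene CHES-1-like, CG1677 and Smr, a corepressor of nuclear receptors, had 6 each. The bHLH gene crp had 5, and 16 genes tied at 4 followed, among them CG6163, HDAC4, Ids and InR, the insulin receptor gene. At a start, tara, Tlk, Raf, CG1677 and crp had a thresholded peak of 620.5 (tara) to 4355 (Raf), and CHES-1-like and Smr had none.

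In tara on chromosome 3R (chr3R:16225651-16260329, plus strand) weak distal and thresholded peaks were interspersed along the gene, with runs of each kind. The weak distal summits in the body lay 6.35, 6.55, 10, 15.7, 15.9, 27.95 and 28.15 kb from the first start, with signals of 129, 112, 104, 157, 136, 142 and 104. The other assigned to tara lay 3.82 kb before the first start with a signal of 109. Thresholded peaks stood between them, including one of 620.5 at the second annotated start, 17.2 kb along. The summits at 6.35 and 6.55 kb match the same replicate summits, with 91.7 in replicate 1 and 60.2 in replicate 3. The weak peak at 10 kb had 31.0 in replicate 1 and 60.5 in replicate 3, and that at 15.9 kb had 79.3 and 34.9.

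**Figure D5:**
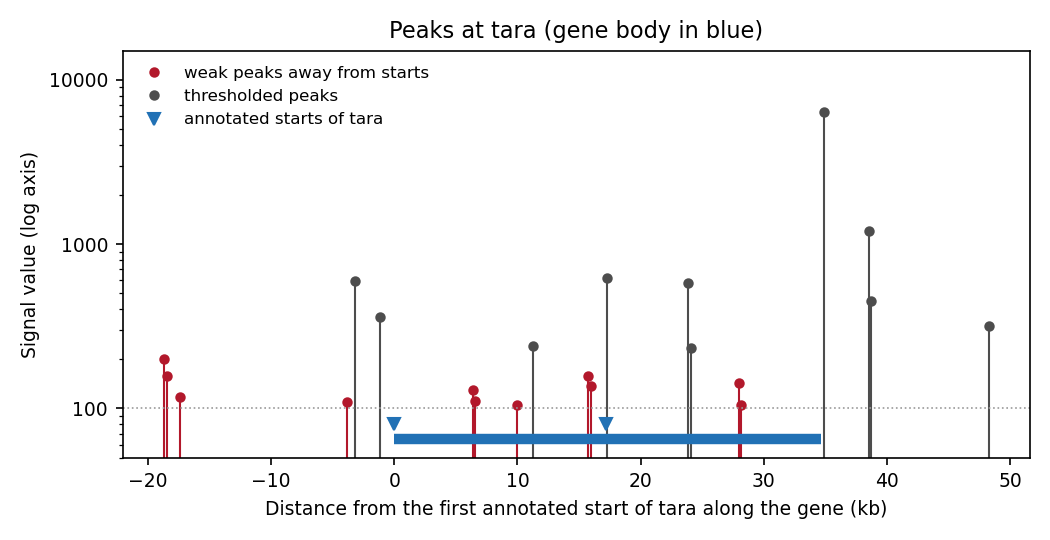
Signal value (y axis, log axis) of weak distal and thresholded peaks around tara by distance in kb from its first annotated start (x axis), with the gene body as a bar, annotated starts as triangles and the minimum signal of 100 as a dotted line. The 7 weak distal peaks in the body have signals of 104 to 157 and lie between thresholded peaks, and 3 further ones before the gene have mtSSB as their nearest start.

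By function, weak distal peaks were found in all 9 gene lists, at shares of 6.98% to 41.4% of a list's genes, against 5.44% of all coding genes. The lowest 2 shares, close to that background, were those of embryo patterning (6.98%) and G1/S control and dREAM (7.14%). Longer genes have more room for a peak, so each list's median length is given beside its count, and no test of a list was made. Chromatin and growth genes had a peak in 12 of 29 (median length 14998 bp), signalling genes in 11 of 37 (13743 bp), muscle and mesoderm genes in 8 of 26 (10230 bp), heart, gut and tracheal genes in 9 of 30 (14974.5 bp), ecdysone response genes in 6 of 20 (32240.5 bp) and neural genes in 8 of 38 (32727 bp). The Hox list had 1 of 8 (30563 bp) and the embryo patterning list 3 of 43 (3780 bp). Counting only genes of 10000 bp or more, where the share over all genes was 21.5%, the counts were 11 of 21 in chromatin and growth, 10 of 21 in signalling, 6 of 13 in muscle and mesoderm, 6 of 19 in heart, gut and tracheae, 5 of 13 in ecdysone response, 6 of 23 in neural, 1 of 8 in Hox, 3 of 12 in embryo patterning and 0 of 4 in G1/S control and dREAM.

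G1/S control and dREAM genes, the classical setting of E2F and Dp, had a weak distal peak in 2 of 28 (median length 2937.5 bp), while 25 of the 28 had a thresholded summit at a start. These 2 were trbl, a pseudokinase gene that restrains mitosis, with a signal of 150 in an intron 3168 bp from a start, and rux, a cyclin-dependent kinase inhibitor gene, with a signal of 109 outside genes 5384 bp from its start. The trbl peak had 82.4 in replicate 1 and 75.4 in replicate 3, and the rux peak had 49.1 and 58.1. The starts of both carried thresholded peaks, of 713 at trbl and 321 at rux.

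In the ecdysone list the nuclear receptor genes ftz-f1, Hr4, Eip75B and EcR had 4, 3, 3 and 3 weak distal peaks, with signals of 109 to 123, 108 to 155, 105 to 127 and 101 to 113. The start of ftz-f1 had a thresholded peak of 10199.5 and that of Eip75B one of 3026, while Hr4 and EcR had none. Among growth and chromatin genes InR had 4 (114 to 196), psq, a Polycomb-linked BTB protein gene, 3 (106 to 207), chinmo 3 (112 to 130) and foxo, the effector of insulin signalling, 2 (122 to 147). The strongest at InR had 137 in replicate 1 and 59.3 in replicate 3, a difference of more than 2-fold. Neither InR nor foxo had a thresholded summit at a start.

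Among signalling genes Dad, an inhibitory Smad gene, fz, a Wnt receptor gene, pnt, an ETS factor gene, and ptc, the Hedgehog receptor gene, had 3 each, the strongest a peak of 202 at Dad (134 in replicate 1 and 81.1 in replicate 3). In muscle, Mef2, the main myogenic factor, had 1 in an intron (162), rols had 1 (192), the muscle actin gene Act57B had 1 (182) and kirre, a gene of myoblast fusion, had 1 (168). In the gut and heart list ush, a cofactor of GATA proteins, had 4 (105 to 148), pnt 3, bowl 2 and GATAd 1. Of neural genes elav had 2 (106 and 120) and the guidance gene NetB, the phosphatase gene Ptp69D and the potassium channel gene Sh had 1 each. The patterning genes were nkd (126), sog (119) and dpp (105), all intronic, and the Hox gene was Dfd (111), 24541 bp from the nearest start.

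By chromosome arm, the ratio of weak distal peaks to positions away from starts was highest on the X. The X chromosome held 225 (21.5%), against 17.7% of positions, a ratio of 1.22 and 10.7 per Mb. The arm 3R held 226, 3L 219, 2R 198 and 2L 171, with ratios to positions of 0.900 to 1.01. Chromosome 4 held 7 (0.669%), against 1.04% of positions, a ratio of 0.644. Thresholded distal peaks had 19.1% on the X and 1.80% on chromosome 4. No test across arms was made.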

How the data were processed

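ChIP-seq peak lists of 2 biological replicates of 1 group were used. The deposited lists are on dm6, and per the descriptions deposited by the authors a relaxed list was called on each replicate and on both pooled, each against the same control, and the thresholded list was derived from these by IDR. Aligner and caller: not given in the sources used here. Signal is the authors' own, as deposited, with no stated scale, and was used to choose and describe peaks within a list. The −log10 q is also as deposited. Summits came from the deposited offset. Per the labels, chromatin was sheared to 200 to 800 bp.

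Genes came from Ensembl release 115 and sequence from the RefSeq copy of dm6, with coordinates counted from 1. Motif letters on either strand were looked for within 100 bp of summits, in flanks 500 bp away and in all windows of that length on the 6 arms. Exact McNemar and Fisher tests were adjusted by Benjamini-Hochberg over 20 motifs and 5 places, with a threshold of 0.05, and were tested on simulated data. The peaks, motifs and gene lists were chosen with earlier results of these data known.

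Named genes were those at the 10 strongest peaks, the 10 genes with most peaks (8 are ahead of a tie, and 1 is not reported here), up to 4 per list, the noncoding genes at the 5 strongest peaks of that kind, and the printed windows, which were limited to those without an annotated exon and off 1 chromosome arm. Alternatives changed the windows, distances, minimum signal and the replicate whose summit was required. Nothing in the labels says how the replicates were separated beyond their numbers, so the spread between them may be technical. The tools were scipy 1.17.1, numpy 2.4.6 and pandas 2.3.3 under Python 3.11.15, with figures from matplotlib 3.10.9.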

Additional observations from a re-analysis of the deposited data

How the results depend on the processing

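The number of weak distal peaks was 336 with a minimum signal of 150 and stayed within 1.5 times of 1046 under the other settings tried. With that minimum, 0 motifs passed against the flanks, 5 differed from thresholded distal peaks and 4 places differed, where the settings of the report gave 3, 10 and 2. Fewer peaks entered by construction. Flanks at 1000 bp gave 5 motifs, and starts at 1000 bp gave 6 that differed from thresholded distal peaks. The share found in both replicates was 92.1% with summits within 100 bp and 99.3% within 500 bp. Noncoding starts lay within 250 bp of 4.49% and within 1000 bp of 11.3%. Keeping only peaks with a replicate 1 summit left 1040 weak distal peaks and gave 2 motifs against flanks and 9 against thresholded distal peaks. Keeping only those with a replicate 3 summit left 1038 and gave 3 and 10. Both settings still used the pooled list and its summits, so neither removes the data of a replicate. One peak per joined region, an alternative chosen after seeing the data, gave 2 and 9. Of 170 values of single motifs under alternatives, 140 kept direction and side of the threshold, 24 lost the call, 2 gained it and 4, none of them called, changed sign. Summit minus flank was 1.04 points (minimum signal 150) and 0.335 (flanks at 1000 bp) for the A run, against -1.05, and with a 200 bp window -0.813 for the DRE core, against 1.82, and 0.0478 for motif 1, against -0.0478. GAGA lost its call most often. The cause was not tested. No paired analysis was possible because the series has 1 group. Unknown read depth limits any statement on absence.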
